A study of Mus musculus with 6 samples.

Results

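The guanylate-binding protein genes are the 10 genes Gbp2 to Gbp11 in the table of 24197 genes used here. They were picked by symbol, with the sex difference of several of them already known from these values, so their male and female levels are given as a description and not as a test. The study set male beside female liver of intact CD-1 mice, which are outbred, in 6 strand-specific libraries of poly-A selected RNA, 3 per sex. Each library was a pool of 17 livers from males of 7 to 9 weeks or of 12 livers from females of 7 to 11 weeks. Pool size and oldest age therefore differ between the sexes by design. No allele, diet or treatment other than being intact is given in the labels. Nothing in the labels says whether a liver was used in more than 1 pool, so the spread between pools may be partly technical.

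Guanylate-binding proteins are large GTPases of the dynamin superfamily whose genes are switched on by interferon-gamma. In infected cells they gather on the vacuoles of parasites and on bacteria, help to break them open, and feed caspase-based inflammasomes. In mouse liver they are made by macrophages and other immune cells and, once interferon is present, by hepatocytes. In the mouse the genes lie in clusters on chromosomes 3 and 5.

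On the submitters' build, mm9, the 4 members on chromosome 3 spanned 142159898 to 142300972, in the order Gbp5, Gbp7, Gbp3 and Gbp2. The 6 members on chromosome 5 spanned 105443172 to 105775491, in the order Gbp8, Gbp9, Gbp4, Gbp10, Gbp6 and Gbp11. Coding sequences from the GENCODE M21 annotation were close to each other on chromosome 5. Gbp6 and Gbp10 were 98.4% identical over their coding bases, and 68.9% of the windows of 50 bases in Gbp6 were found unchanged in another member. Gbp4 and Gbp11 were 91.2% identical, and Gbp9 was closest to Gbp6, at 90.5%. On chromosome 3 the closest pair, Gbp3 and Gbp7, shared 78.4%. The split of reads among the chromosome 5 members, above all between Gbp6 and Gbp10, is therefore uncertain. Gbp11 is annotated as a transcribed pseudogene in RefSeq, although the authors listed it under a RefSeq record of the coding mRNA type. GENCODE M21 gives it a coding sequence of 1857 bases.

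RefSeq promoter windows on GRCm38.p6, from 250 bases before to 50 bases after the start, were at hand for 4 of the 10 members, all on chromosome 3 and on the plus strand. They are shown because these members moved together in the libraries, and because the interferon-stimulated response element (ISRE), to which interferon-activated factors bind, can be read in them. Capitals mark the matches to the ISRE, searched on both strands as GAAA, any 2 bases, GAAA. On the strand printed it reads TTTC, any 2 bases, TTTC. The windows lie at chr3:142496684-142496983 for Gbp5, chr3:142530086-142530385 for Gbp7, chr3:142559794-142560093 for Gbp3, chr3:142620413-142620712 for Gbp2. Gbp3 has a further window that held no match.
Gbp5: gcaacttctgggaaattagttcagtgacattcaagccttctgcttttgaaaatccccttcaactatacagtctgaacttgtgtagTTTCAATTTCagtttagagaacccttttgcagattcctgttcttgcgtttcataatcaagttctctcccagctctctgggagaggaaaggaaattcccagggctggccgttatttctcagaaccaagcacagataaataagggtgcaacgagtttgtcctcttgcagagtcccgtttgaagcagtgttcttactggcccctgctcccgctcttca
Gbp7: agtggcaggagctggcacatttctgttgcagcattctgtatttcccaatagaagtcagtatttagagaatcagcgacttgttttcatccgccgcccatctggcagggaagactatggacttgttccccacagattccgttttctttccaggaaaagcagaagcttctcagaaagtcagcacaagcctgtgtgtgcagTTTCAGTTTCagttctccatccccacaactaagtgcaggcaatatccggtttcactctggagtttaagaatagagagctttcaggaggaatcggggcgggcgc
Gbp3: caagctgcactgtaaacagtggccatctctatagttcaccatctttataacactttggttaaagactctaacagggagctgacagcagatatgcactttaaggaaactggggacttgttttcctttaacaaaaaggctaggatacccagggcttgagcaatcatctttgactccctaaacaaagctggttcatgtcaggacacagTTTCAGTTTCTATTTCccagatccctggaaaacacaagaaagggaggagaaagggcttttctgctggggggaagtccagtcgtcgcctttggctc
Gbp2: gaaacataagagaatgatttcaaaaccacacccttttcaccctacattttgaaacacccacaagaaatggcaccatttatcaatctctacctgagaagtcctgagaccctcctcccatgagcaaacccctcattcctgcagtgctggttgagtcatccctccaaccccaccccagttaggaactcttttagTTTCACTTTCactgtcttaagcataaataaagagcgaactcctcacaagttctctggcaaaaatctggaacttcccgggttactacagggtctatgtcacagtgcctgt
All 4 members held an ISRE match in this window, against 3.44% of 32851 promoter windows in the same table. The match ended 29 to 49 bases before the start in Gbp2, Gbp3 and Gbp7, and 155 bases before it in Gbp5. In Gbp3 a pair of matches overlapped. The gamma-activated site, searched as TTCNNNGAA, which reads the same on both strands, was found in Gbp5 and Gbp7, against 8.30% of windows. A match of letters is a description and not a bound site.

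The deposited table holds the authors' mean FPKM per sex (fragments scaled to gene length and library total), and the whole reads behind those means could be recovered per library for all 10 members. The library totals were 28358105, 38215906 and 41206357 reads in female liver and 28415535, 37727874 and 42673908 reads in male liver. These totals were themselves inferred, from small RNA genes with a lone read in 1 library, with 19 to 37 such genes per total. Which total belongs to which pool number is unknown, so the libraries are named here by rising total, as A, B and C for female and D, E and F for male liver. In all, reads were recovered for 15767 of 17993 genes above 0, or 87.6%, but for only 36.2% of genes of at least 20 FPKM, so highly expressed genes are thin in every share of all genes below. Between libraries of a sex the correlation of log2 FPKM over genes lay between 0.986 and 0.993, and between sexes it lay between 0.951 and 0.963. The hepatocyte gene Alb, which encodes albumin, was at 19411 FPKM in the females and 12608 FPKM in the males (authors' means), among the most abundant genes of the table.

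Female library B stood apart for these genes. It was the highest of the 6 libraries in 9 of 10 members in the gene body and in 9 of 10 in introns. Among 10316 genes of at least 100 recovered reads, it was the highest in 24.3%, and among 7580 genes of 100 to 1500 recovered intron reads in 29.1%. It was at least 2-fold above the mean of the other 2 female libraries in 8 of 10 members, against 1.24% of those genes. In each of the other 5 libraries, 0.174% to 0.242% of genes lay 2-fold above the other libraries of the same sex. The library was singled out from the members themselves, so these counts carry no test, and each member's comparison of the sexes below is given with and without it.

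By mean level per sex, the members were higher in female liver. For most members this held most of all in library B and to a lesser degree in the other 2 female libraries. In the authors' deposited table, 8 of 10 members were called higher in female liver at an adjusted p under 0.05 and 0 in male liver, against 5.44% of all genes called higher in female liver. The share of all genes called higher in male liver was not taken, here or below, so counts called higher in males stand without one. The members' median log2 ratio of male over female was -1.39 in that table, against -0.0039 over all genes above 0. From the recovered reads the median member was 2.72-fold higher in female than in male liver with all libraries, and 1.67-fold higher without library B. Over the 10316 genes the same medians were 1.04 and 1.04. Every female library lay above every male library in 8 of 10 members, against 21.9% of genes.

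**Figure D1:**
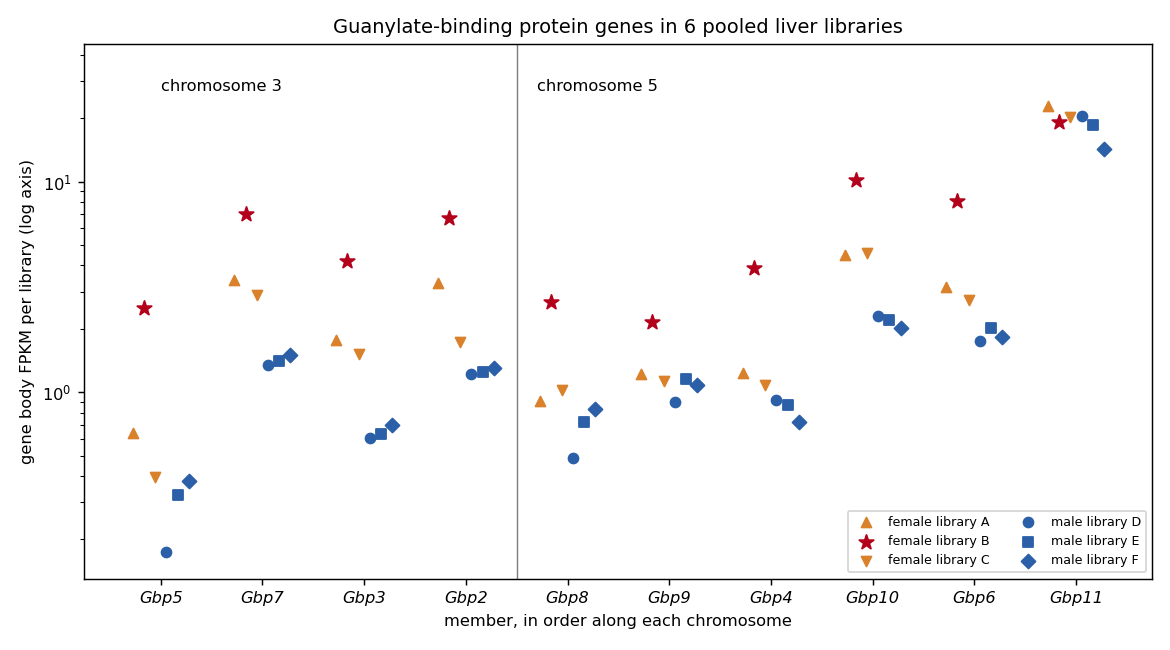
Gene body FPKM on a log axis of each member in the 6 pooled libraries, in order along chromosomes 3 and 5, with 1 point per library and the shape giving sex and library total. The star, female library B, is the highest point for all members but Gbp11, and the 3 male points lie close together in most members.

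On chromosome 3, Gbp2, which in mice helps to restrict Toxoplasma, had 3.29, 6.75 and 1.73 FPKM in female libraries A, B and C. In male libraries D, E and F it had 1.22, 1.25 and 1.30 FPKM. The male libraries thus sat together, the female ones spread widely, and the groups did not overlap. The female mean was 3.92 ± 2.57 FPKM and the male mean 1.26 ± 0.040 FPKM (SD, n = 3 pools each), from 1374 reads in all. Its adjusted p in the authors' deposited table was 1.36e-04, at a 3.00-fold higher level in females. From recovered reads Gbp2 was 3.12-fold higher in female liver, and 2.00-fold without library B.

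Gbp5, which has been tied to the NLRP3 inflammasome in mouse macrophages, was the least abundant member in both sexes and showed the largest contrast within females. Its level was 0.642, 2.51 and 0.394 FPKM in the female libraries, in the same order. In male liver it was 0.175, 0.325 and 0.380 FPKM. The lowest female library lay only just above the highest male one, while library B was 4.85-fold above the mean of the other 2 female libraries. It held 290 reads on Gbp5, beside 55 and 49 reads in the other 2. The fold of 4.03 in favour of female liver fell to 1.77 without that library. In the authors' deposited table the adjusted p was 0.00698.

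Gbp3 and Gbp7, the remaining members of this cluster, kept their sexes well apart when that library was left out. Gbp3 had 1.77, 4.20 and 1.51 FPKM in the female libraries and 0.604, 0.633 and 0.702 FPKM in the male ones. Gbp7 had 3.42, 7.05 and 2.89 FPKM in the female libraries and 1.35, 1.41 and 1.51 FPKM in the male ones. For both, the lowest female library was well above the highest male library. Female liver was 3.86-fold higher for Gbp3 with all libraries and 2.54-fold without library B. For Gbp7 the folds were 3.14 and 2.22. In the authors' deposited table the adjusted p was 1.15e-07 for Gbp3 and 7.84e-09 for Gbp7.

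On chromosome 5, Gbp10 and Gbp6 are the near-identical pair. Gbp10 had 4.46, 10.1 and 4.60 FPKM in the female libraries and 2.29, 2.20 and 2.03 FPKM in the male libraries. Gbp6 had 3.15, 8.11 and 2.75 FPKM in the female libraries and 1.75, 2.01 and 1.82 FPKM in the male ones. In neither gene did the sexes overlap, and in both the 2 lower female libraries were close to each other. Gbp10 was 2.94-fold higher in female liver, and 2.08-fold without library B. In the authors' deposited table the adjusted p was 5.14e-08 for Gbp10 and 6.02e-04 for Gbp6. The folds of Gbp6 were 2.50 and 1.58, and the pair cannot be told apart in reads that fall where their sequences are equal.

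Most of the contrast in Gbp4 and Gbp8 lay in library B. Gbp4 had 1.23, 3.90 and 1.08 FPKM in the female libraries and 0.915, 0.870 and 0.723 FPKM in the male ones. Library B was thus 3.38-fold above the mean of the other 2 female ones. Its fold in favour of female liver was 2.47 with that library and 1.38 without it. Gbp8 had 0.903, 2.68 and 1.03 FPKM in the female libraries and 0.487, 0.722 and 0.829 FPKM in the male ones. Its fold went from 2.26 to 1.42. In both genes the lower female libraries stayed above the highest male one, but by a small margin. The adjusted p in the authors' deposited table was 0.0117 for Gbp4 and 0.0256 for Gbp8.

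Gbp9 and Gbp11 were the members not called between the sexes in the authors' deposited table, with adjusted p-values of 0.249 and 0.687. Gbp9 had 1.22, 2.15 and 1.14 FPKM in the female libraries and 0.901, 1.16 and 1.08 FPKM in the male ones. The lowest female library was under the highest male library. Library B was again the highest, at 1.83-fold the mean of the other 2 female libraries. The fold in favour of females was 1.44 with it and 1.13 without it.

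Gbp11 was by far the most abundant member and did not follow the others in the gene body. It had 23.0, 19.2 and 20.2 FPKM in the female and 20.4, 18.6 and 14.3 FPKM in the male libraries. The sexes overlapped, and library B was the lowest of the female ones, at 0.891 times the mean of the other 2. Female liver was 1.17-fold higher with it and 1.22-fold without it. Gbp11 made up 42.4% of the members' summed FPKM in female liver and 63.5% in male liver. Its reads rest on the weakest recovery among the members, with 0.0028 solutions expected by chance.

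**Figure D2:**
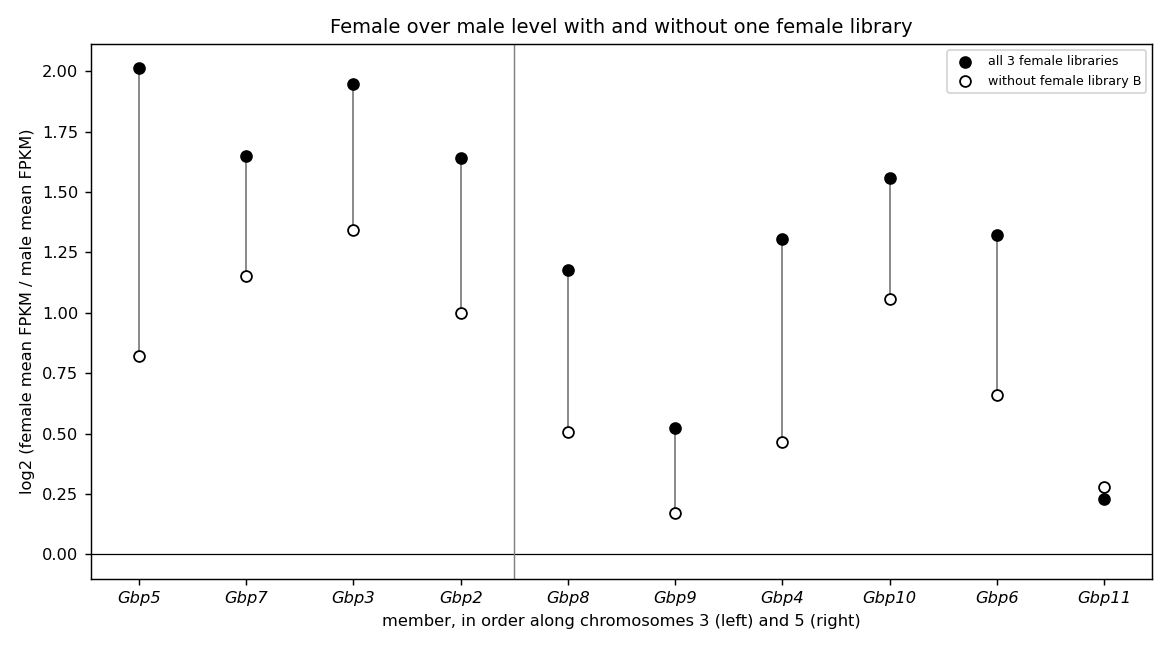
Log2 ratio of the female over the male mean FPKM (gene body) per member, over all 3 female libraries (filled) and without female library B (open). All open points but that of Gbp11 lie below the filled ones, and all 10 stay above 0.

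Levels between members are compared on the FPKM scale, which is per length. In male liver the order of mean FPKM was Gbp11, Gbp10, Gbp6, Gbp7, Gbp2, Gbp9, Gbp4, Gbp8, Gbp3 and Gbp5, from 17.8 to 0.293 FPKM. Neighbours in that order overlapped between libraries from Gbp9 to Gbp4, from Gbp4 to Gbp8 and from Gbp8 to Gbp3. In female liver the order was Gbp11, Gbp10, Gbp6, Gbp7, Gbp2, Gbp3, Gbp4, Gbp8, Gbp9 and Gbp5, from 20.8 to 1.18 FPKM. There all neighbours overlapped between libraries but Gbp11 and Gbp10. Read within each library, the order held in all 3 female libraries for Gbp10 over Gbp6, Gbp7 over Gbp2, Gbp2 over Gbp3, Gbp3 over Gbp4 and Gbp4 over Gbp8.

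Summed over each cluster, chromosome 3 gave a female mean of 12.0 FPKM and a male mean of 3.62 FPKM, a 3.33-fold difference that was 2.16-fold without library B. Chromosome 5 gave 37.0 and 24.4 FPKM, or 1.52-fold and 1.33-fold. With Gbp11 left out of the sum, chromosome 5 gave 16.2 and 6.60 FPKM, or 2.45-fold and 1.63-fold. The sum in that library was 2.62-fold that of the other female libraries on chromosome 3. On chromosome 5 it was 1.43-fold over all members and 2.50-fold without Gbp11.

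Reads in introns, which come mostly from unprocessed transcripts, showed library B still more strongly. In introns it was at least 2-fold above the mean of the other 2 female libraries in 9 of 10 members, against 1.95% of 7580 genes of 100 to 1500 recovered intron reads. The members' median was 3.80-fold, beside 2.63-fold in the gene body. Gbp4 introns held 20, 137 and 31 reads in the female and 17, 22 and 30 reads in the male libraries. Gbp2 introns held 12, 64 and 18 reads in female and 6, 3 and 8 reads in male liver. The single library stood clear of the other 5 in both genes. Gbp11 introns held 139, 526 and 210 reads in female and 145, 197 and 201 reads in male liver. Per length and depth, that library was thus 2.75-fold above the other 2 female libraries in Gbp11 introns, while in the Gbp11 gene body it was below them. Gbp9 was the reverse case, with 24, 27 and 30 intron reads in female liver and no excess in that library.

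Between the sexes, the authors' deposited table called 4 of 10 members higher in females from introns and 0 in males, against 1.4% of all genes called higher in female liver. The 4 were Gbp2, Gbp3, Gbp7 and Gbp10. From recovered intron reads the median member was 2.91-fold higher in female liver, and 1.48-fold without library B. Every female library was above every male library in 6 of 10 members, against 18% of the 7580 genes. Intron totals ran from 107 to 1418 reads per member over the 6 libraries, so single intron values are less precise than gene body values.

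**Figure D3:**
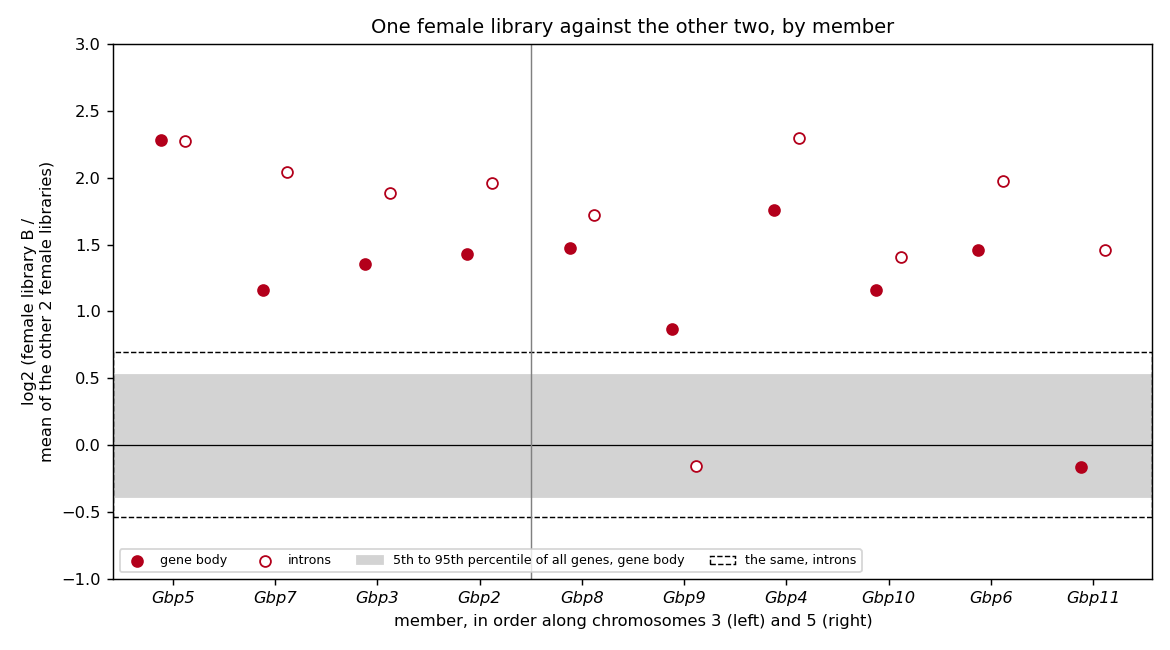
Log2 ratio of female library B over the mean of the other 2 female libraries, per member, in the gene body (filled) and in introns (open), with the 5th to 95th percentile of all genes in grey for gene bodies and between dashed lines for introns. The filled point of Gbp11 and the open point of Gbp9 lie inside their range, and the others lie above it.

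A limma fit on log2 FPKM per library, with 0.1 FPKM added, was run over 11403 genes as an alternative chosen after seeing the data. It called 3 of 10 members higher in female liver (Gbp3, Gbp7 and Gbp10) and 0 in male liver, against 5.29% of genes called higher in female liver. At an unadjusted p under 0.05 it counted 6 and 0 members, against 16.6% of genes higher in female liver. This is fewer than the 8 in the authors' deposited table. Without female library B the limma fit called 4 members (Gbp3, Gbp6, Gbp7 and Gbp10), against 3.19% of genes, with a smaller median log2 difference of -0.65 in place of -1.24. Without female library A it called 1 member (Gbp10), against 3.6% of genes, and without C it called 4 (Gbp2, Gbp3, Gbp7 and Gbp10), against 4.16%. Without male library D, E or F the limma fit called 0 members, against 2.41%, 2.49% and 2.44% of genes. At an unadjusted p under 0.05 those fits counted 5, 5 and 4 members, against 13.4%, 13.7% and 13% of genes.

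Inside the chromosome 3 cluster lies Gbp2b, a relative outside the 10 members, with 0.388, 3.37 and 0.972 FPKM in the female libraries and 0.437, 0.583 and 0.656 FPKM in the male ones. Its sexes overlapped, yet library B was 4.95-fold above the other 2 female libraries. Mir6381, a short gene at 142286824 to 142286910 within the span of Gbp2, was 2.86-fold higher there. The neighbours outside the clusters were not high in that library. Pdlim5, beside chromosome 3, was at 1.02 times the other female libraries, and Abcg3 and Lrrc8b, beside chromosome 5, were at 0.827 and 1.01 times. Ccbl2, on the far side of the chromosome 3 cluster, had no recovered reads.

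Over the 6 libraries and 8964 genes, the summed member level had its highest correlations with Pilra, Il2rg, Bclaf1, Arhgap4 and Tnfaip8l2, with r from 0.991 to 0.994. Il2rg, the shared receptor chain of several interleukins, had 1.12, 2.09 and 0.948 FPKM in the female libraries and 0.633, 0.723 and 0.523 FPKM in the male ones. The sum is weighted to Gbp11, at 42.4% of it in female and 63.5% in male liver, which did not follow the other members. In these genes library B was 1.12-fold (Bclaf1) to 2.03-fold (Il2rg) above the other 2 female libraries. With 6 libraries and so many genes, these are a description of likeness alone.

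Interferon-gamma signalling acts upstream of the members. By the authors' deposited table, 2 of 18 genes of this signalling list were called higher in females and 0 in males. Over all genes, 5.44% were called higher in females. The list's median log2 ratio of male over female was -0.12. Batf2, a transcription factor of the list, was among those called, at 2.88-fold higher in females. Its levels were low, at 0.307 FPKM in females and 0.0993 FPKM in males, from 60 recovered reads over the 6 libraries. Of 14 genes of this list with at least 100 reads, 4 were at least 2-fold higher in library B than in the other female ones. Among the 10316 genes of at least 100 recovered reads the share was 1.24%. Socs3, a feedback inhibitor of cytokine signalling, led the list at 4.01-fold. Ifng, the ligand itself, had 3 reads over all 6 libraries, so its level could not be followed at this depth.

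Other targets of interferon-gamma were also high in library B. By the authors' deposited table, 14 of 27 were called higher in females and 0 in males. Over all genes, 5.44% were called higher in females. The list's median log2 ratio was -0.67. Tgtp1, an immunity-related GTPase, had 2.71, 17.1 and 1.44 FPKM in the female libraries and 0.952, 1.13 and 1.34 FPKM in the male ones. Cxcl10, a chemokine that draws T cells, had 2.37, 7.45 and 0.794 FPKM in the female libraries and 0.384, 0.795 and 0.873 FPKM in the male ones. In Tgtp1 all female libraries exceeded the male ones, whereas in Cxcl10 the groups overlapped. From recovered reads the fold in favour of females was 6.20 for Tgtp1 and 5.17 for Cxcl10, and 1.82 and 2.31 without library B. Of 20 such genes with at least 100 reads, 9 were at least 2-fold higher in library B, against 1.24% of the 10316 genes. Their median in that library was 1.92-fold. Of 20 type I interferon response genes with at least 100 reads, 0 were 2-fold higher there, with a median of 1.26-fold, although the authors' deposited table called 10 of 22 higher in females.

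Among factors that act with or after guanylate-binding proteins, the authors' deposited table called 5 of 20 higher in females and 1 in males. Over all genes, 5.44% were called higher in females, and the list's median log2 ratio was -0.13. Il1b, a cytokine released by inflammasomes, had 1.94, 4.63 and 1.74 FPKM in the female libraries and 0.928, 0.779 and 0.795 FPKM in the male ones. Of 18 such genes, 4 were at least 2-fold higher in library B, against 1.24% of the 10316 genes. Prenylation gives several guanylate-binding proteins the lipid that anchors them to membranes. Of the enzymes of prenylation and of the processing that follows it, 0 of 6 were called in either direction. Of the other large GTPases of the dynamin superfamily, 1 of 15 was called, Ehd3, at 1.25-fold higher in female liver.

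**Figure D4:**
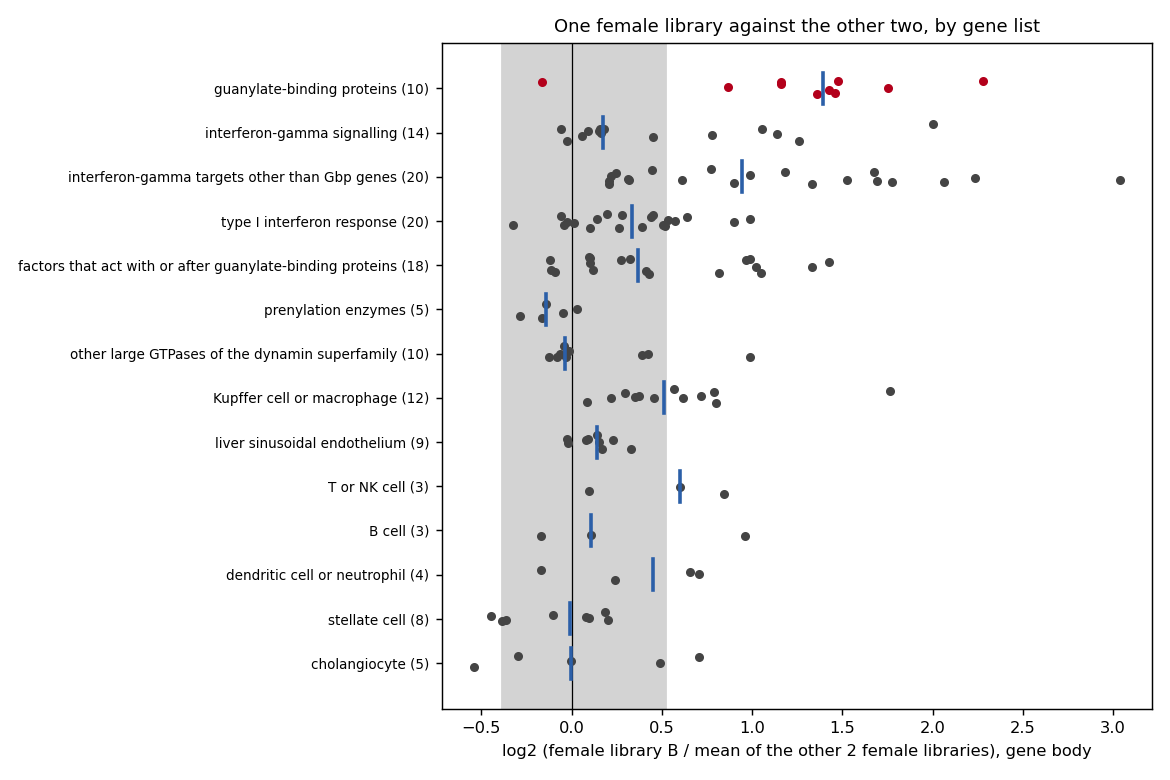
Log2 ratio of female library B over the mean of the other 2 female libraries, 1 point per gene of at least 100 reads, by list, with blue bars at the medians and the 5th to 95th percentile of all genes in grey. The guanylate-binding protein genes and the other interferon-gamma targets have their medians to the right of the grey band, as do the 3 T or NK cell genes. Those of the other lists are inside it.

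The sums of Kupffer cell, T or NK cell, B cell and sinusoidal endothelial markers were also highest in library B. The authors' deposited table called 13 of 13 Kupffer cell or macrophage markers higher in females, against 5.44% of all genes. Over the 12 with recovered reads the summed level was 154, 216 and 132 FPKM in the female libraries and 104 to 107 FPKM in the male ones. No marker of this list was at 0. Library B was again the highest, yet the markers' median excess there was 1.43-fold, less than the members' 2.63-fold. Marco, a macrophage scavenger receptor, had 8.54, 17.1 and 1.55 FPKM in the female libraries and 1.12 to 1.19 FPKM in the male ones, so it was high in library A too. Its fold was 7.88 with library B and 4.38 without it. The summed Kupffer cell markers were 1.59-fold higher in females with library B and 1.36-fold without it.

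The 16 T or NK cell markers summed to 4.16, 7.05 and 3.56 FPKM in the female libraries and 1.84 to 2.54 FPKM in the male ones, a ratio of 2.28, or 1.78 without library B. The authors' deposited table called 5 of 16 higher in females, against 5.44% of all genes, a share that applies to the later lists too. Only 1 marker of the list had a mean of at least 0.5 FPKM, and it was called. None was at 0. B cell markers had 0 of 6 called. Their sums were 1.30, 1.47 and 1.20 FPKM in the female libraries and 0.90 to 1.08 FPKM in the male ones. Dendritic cell or neutrophil markers had 1 of 11 called, higher in female liver, with sums of 3.64 to 9.23 and 8.47 to 9.06 FPKM. Sinusoidal endothelial markers had 2 of 12 called, higher in female liver. The 9 with recovered reads summed to 79.7, 82.2 and 76.5 FPKM in female libraries A, B and C and to 65.3 to 66.0 FPKM in the male ones. Stellate cell markers had 3 of 10 called, higher in female liver, and the 8 with recovered reads summed to 25.2 to 26.7 FPKM in females and 22.4 to 23.8 FPKM in males. Among the marker lists with sums, only that of dendritic cells or neutrophils had sexes that overlapped. Every female library lay above every male library in 21.9% of single genes, and no such share was taken for sums. Cholangiocyte markers had 1 of 6 called, higher in male liver, with sums of 8.80 to 10.9 FPKM in females and 11.2 to 18.9 FPKM in males. Of 10 hepatocyte genes 2 were called higher in female and 3 in male liver. In these bulk pools fewer cells of a type and less RNA per cell cannot be told apart. The part of these cells in the members' levels was not tested.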

How the data were processed

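Per the labels, 3 male and 3 female pools of mouse liver RNA were sequenced after poly-A selection. The submitters' processing notes list TopHat2, featureCounts, edgeR and build mm9 without versions or roles. The authors deposited mean FPKM per sex, a ratio of male over female, that ratio as a signed fold score, and an adjusted p-value, for gene bodies and for introns, per the file headers. The table holds no counts, so the planned count tests were not run, and the authors' deposited comparison is the main one. The members and lists were chosen with earlier results of these data known. All members were named; list genes were named by call, fold and level, except Socs3 and Ifng, named after their values were seen. A gene of these lists is not reported here.

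Each authors' mean is a sum of whole reads over library totals. The totals were first inferred from small RNA genes with a lone read, as the 3 values per sex that recurred most. With those totals, reads per library and gene length were solved for jointly, from annotated lengths (within 40 or 300 bases) and, separately, from introns. This recovery was developed on these data. Of the genes solved both ways 97.3% were equal and the 240 that differed were left out, which shows that solutions found in 1 way only can be wrong more often than the 1.80 expected by chance in all. Of the members, 6 were solved both ways and 4 with the length from introns. The limit on chance solutions per gene was changed after members had been seen: 4 limits were tried, and the last, 0.003, was taken because Gbp11 was not solved at the one before. At 0.002 or below 9 members remain. Read intervals cover counting error only.

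Python 3.11.15, numpy 2.4.6, pandas 2.3.3, numba 0.67.0, Biopython 1.88, matplotlib 3.10.9, R 4.3.3 and limma 3.58.1 were used. Both the recovery and the limma fit were run on simulated data, under narrower settings than in their use here. The simulated recovery took the library totals as given and drew levels below that of Gbp11. The limma simulation took its spread from the male libraries alone. Limma ran on genes of at least 0.1 FPKM. Alternatives are given in the closing section.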

Additional observations from a re-analysis of the deposited data

How the results depend on the processing

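The recovery of reads per library and the limma fits were chosen after seeing the data. At a limit of 0.002 on chance solutions Gbp11 drops out, and 8 of the 9 members left are still at least 2-fold higher in female library B, against 1.24% of 10126 genes; among genes solved both ways it is 6 of 6 members, against 1.35% of 5761 genes. No member was called higher in male liver under any alternative run.

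With 8 members called higher in female liver from the gene body in the authors' deposited table, an adjusted p under 0.01 left 6 (without Gbp4 and Gbp8), and a minimum mean of 2 FPKM left 4, since fewer members were counted. From introns an adjusted p under 0.01 left 3 of 4. The limma fit with all 6 libraries called 3, and with each library left out 0 to 4; the cause of the difference from the authors' calls was not tested. The median log2 ratio of male over female from the gene body, -1.39 in the authors' table, was -1.50 at a minimum of 2 FPKM, -1.44, -1.40 and -0.87 with pseudocounts of 0.01, 0.1 and 1 FPKM, -1.35 after quantile normalization and -1.58 with members of at least 85% coding identity summed. The limma fit gave -1.24, and -1.49 to -0.65 with each library left out, the value nearest 0 being that without female library B. From introns the median was -1.41, and -1.54 at a gene body minimum of 2 FPKM, -1.24, -0.48 and -0.065 with the 3 pseudocounts, -0.40 after quantile normalization, -0.43 after rescaling without the 50 most abundant genes and -0.48 with like members summed. Intron levels are far below 1 FPKM, so pseudocounts shrink them by construction. Without female library B the intron median from recovered reads was -0.54. Of the 10 members' gene body ratios, 2 moved by over 1.5 times with a pseudocount of 1 FPKM, 0 did so under the other pseudocounts, quantile normalization or rescaling, and none changed sign. Of the intron ratios 7 moved that far under each alternative with at least 0.1 FPKM added, and 1, that of Gbp9, which was not called, changed sign. At a minimum mean of 0.5 FPKM the genes called higher in females fell from 5 to 1 for T or NK cell markers, from 2 to 1 for interferon-gamma signalling, from 5 to 4 for factors acting with or after the members, and from 1 to 0 for dendritic cell or neutrophil markers.

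No paired analysis was possible because the recovered libraries carry no pool number. Tests on counts with other normalizations, and summing by protein identity, were not run. Depth limits the introns most, at 107 to 1418 reads per member.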
